A study of Mus musculus with 6 samples.

Results

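The aminoacyl-tRNA synthetase genes were followed from mouse oocytes to 4-cell embryos in libraries labelled YAP-null or wild type. The list holds 34 genes, named by symbol and chosen for what they encode, though with earlier results of these data known. It has 20 cytosolic enzymes or subunits and 14 mitochondrial enzymes, whose symbols end in 2. All 34 were found among the 23308 symbols of the tables, each at 1 locus. RNA sequencing gave 6 libraries of 60 oocytes or embryos each, from females of ICR background aged 21 to 23 days that had received PMSG/hCG and, for embryos, had been mated. Oocytes at the germinal vesicle (GV) stage, before meiotic maturation, gave 4 libraries, 2 of Yap1-deleted (YAP-/-) oocytes of YAP-/- females, called YAP-null here, and 2 of wild-type oocytes of wild-type females. From 4-cell embryos there was 1 library of each label. The source field of the 4-cell samples names GV oocytes, and the titles and stage fields, which name 4-cell embryos, were followed. The genotype of the fathers, the construct behind the deletion and the cells of the females it affects are not stated in the labels.

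Aminoacyl-tRNA synthetases join each amino acid to its own transfer RNA, the step at which the genetic code is read. Each symbol starts with the letter of the amino acid: Aars charges alanine tRNA, Yars tyrosine tRNA. Most amino acids have a cytosolic enzyme and a separate mitochondrial enzyme, which is encoded in the nucleus and imported. Single genes supply both compartments for glycine (Gars) and lysine (Kars), and Eprs encodes a fused enzyme for glutamate and proline. Farsa and Farsb encode the subunits of cytosolic phenylalanine-tRNA synthetase. Several cytosolic enzymes are held in a multisynthetase complex by scaffold proteins. The oocyte stores mRNA and protein for the first cleavages, then maternal mRNA is degraded while the embryo starts its own transcription. Mutations of human LARS2 and HARS2 cause Perrault syndrome, in which ovarian failure occurs with deafness, and mutations of human AARS2 can cause leukodystrophy with ovarian failure.

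Expression was measured as FPKM, a fragment count scaled by transcript length and by library size, which is relative to the library's own total. A fall in RNA per cell and a fall in the number of cells cannot be told apart in such bulk samples. Read totals are not in the tables. Relative depth, estimated from the deposited confidence bounds of 1881 genes, ranged from 0.368 (YAP-null GV library 1) to 1 (wild-type GV library 1, the reference). Yap1 was at 10.8 and 10.04 FPKM (YAP-null) and 248 and 154 FPKM (wild type) in GV libraries, and at 33.3 and 89.7 FPKM in the YAP-null and wild-type 4-cell libraries. The 4-cell library labelled YAP-null thus held Yap1 at 37.2% of the wild-type level and 3.20 times the mean of the YAP-null GV libraries, so the name YAP-null is used for these embryos only as their label. All 10 fixed oocyte markers were present in GV oocytes, with sums of 5226 to 10758 FPKM, against 915 FPKM (YAP-null) and 114 FPKM (wild type) in 4-cell embryos. The 11 granulosa and cumulus markers summed to 25.7 to 35.3 FPKM in GV libraries and to 1.16 and 1.31 FPKM in 4-cell libraries. In GV libraries Inha was at 6.12 to 15.6 FPKM, Cyp19a1 at 9.51 to 13.6 FPKM and Amh at 3.05 to 4.46 FPKM. The other markers of this list reached at most 2.28 FPKM (Hsd3b1), with Ptx3 and Tnfaip6 at 0 in all 6 libraries.

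In every library the cytosolic synthetases made up most of the synthetase mRNA. Their FPKM summed to 890 and 796 in the YAP-null and 882 and 824 in the wild-type GV libraries, and to 853 in the YAP-null and 1136 in the wild-type 4-cell library. The mitochondrial enzymes summed to 170.4 and 101.01 in the YAP-null and 184 and 101.2 in the wild-type GV libraries, and to 252 and 186 in the YAP-null and wild-type 4-cell libraries. Lars2 alone made up 12.8% to 64.0% of that sum, with the lowest shares in the GV libraries numbered 2. Without Lars2 the cytosolic sum was 8.83 to 10.6 times the mitochondrial sum in all 6 libraries.

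**Figure D1:**
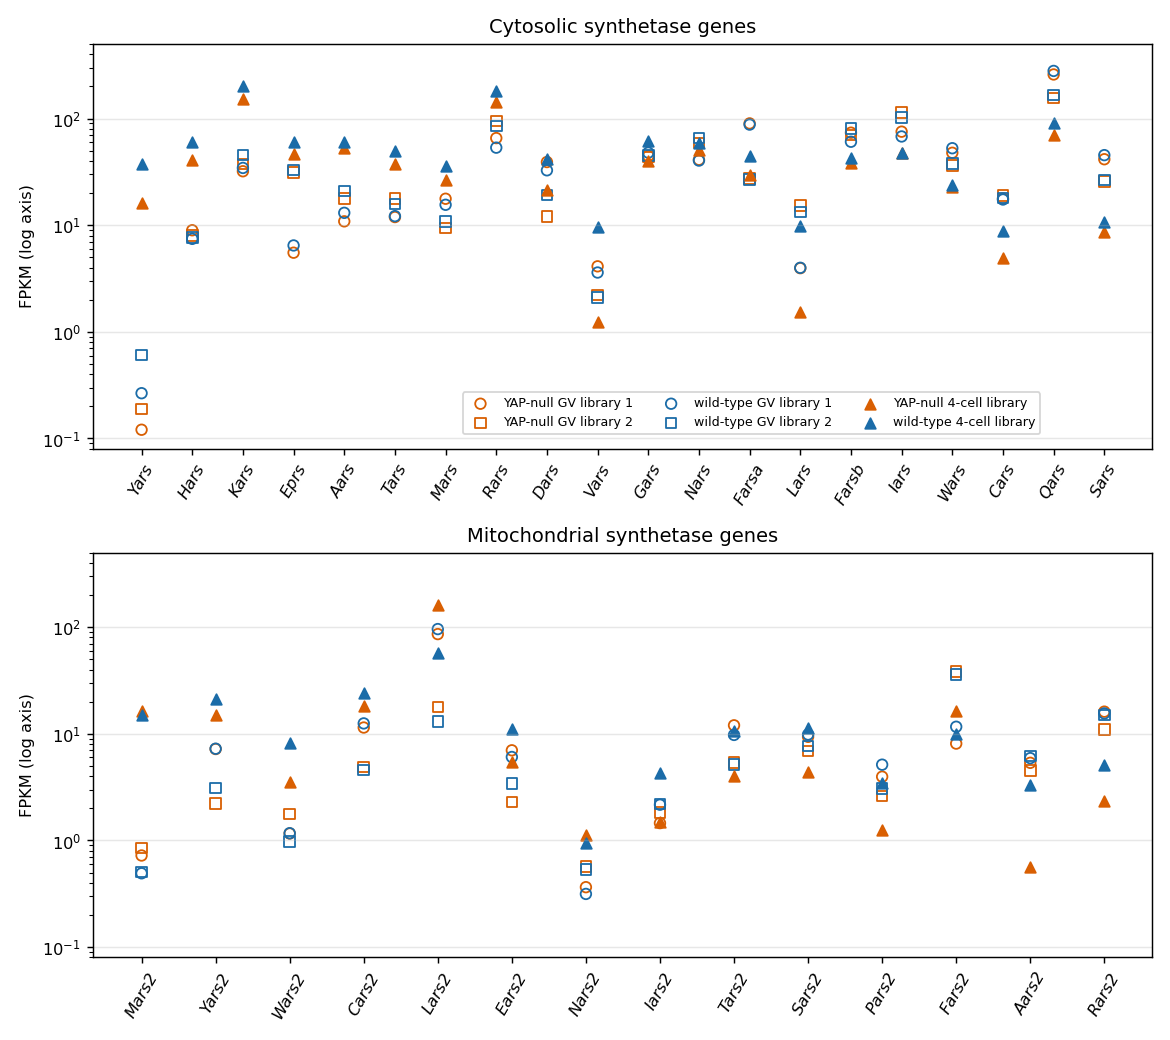
FPKM (log axis) of each synthetase gene in the 6 libraries, cytosolic genes above and mitochondrial genes below, ordered from the largest to the smallest stage difference. Open symbols are GV libraries (circles number 1, squares number 2), filled triangles are 4-cell libraries, orange is YAP-null and blue is wild type; Yars and Mars2 lie under 1 FPKM in all 4 GV libraries and above 15 FPKM in both 4-cell libraries.

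The order of the genes differed between stages. Qars, the glutamine enzyme, was the highest synthetase mRNA in all 4 GV libraries, and Yars or Mars2 was the lowest. At the 4-cell stage Kars was the highest in the wild-type library at 200.1 FPKM and Lars2 in the YAP-null library at 161 FPKM. Of 15 pairings of a mitochondrial enzyme with the cytosolic enzyme or subunit for the same amino acid, 8 had the cytosolic mRNA higher in 6 of 6 libraries. Nars was 45.9 to 128 times Nars2. Yars and Yars2 were the other way round in oocytes, where the Yars level was 0.0168 to 0.195 times that of Yars2, and near each other in 4-cell embryos, at 1.08 and 1.78 times.

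The first comparison asked which synthetase mRNAs differ between oocyte and 4-cell embryo over both genotypes. Of the 33 members whose mean over the 6 libraries reached 1 FPKM, 10 rose and 5 fell, at a Benjamini-Hochberg adjusted p under 0.05 in limma with genotype as a covariate. Across all genes tested, 28.2% rose and 27.8% fell, 56% in all. The share of members that rose, 30.3%, was near the background, and the share that fell, 15.2%, was below it; that gap was not tested. The median difference of the 33 was 0.32 on the log2(FPKM + 1) scale, against -0.10 over all genes. By place in the cell, 7 of 20 cytosolic and 3 of 13 mitochondrial genes rose, and 3 and 2 fell, with medians of 0.22 and 0.33.

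The tyrosine enzyme mRNA was nearly missing from oocytes. Yars (mm9 chromosome 4, 128867039 to 128896851) was at 0.121 and 0.190 FPKM (YAP-null) and 0.266 and 0.608 FPKM (wild type) in GV libraries. It was at 16.2 FPKM (YAP-null) and 37.7 FPKM (wild type) in 4-cell embryos. Both 4-cell libraries lay far above all 4 GV libraries, and the stage difference was 4.33 ± 0.325 (SE, limma adjusted p = 0.000243), a 91.1-fold rise of the mean FPKM. That fold has a GV mean of 0.296 FPKM as its divisor, so its size is imprecise. With a pseudocount of 0.1 in place of 1 the difference was 6.11. Mars2, the mitochondrial methionine enzyme (chromosome 1, 55294021 to 55296902), had the second largest rise. It was at 0.723 and 0.851 FPKM (YAP-null) and 0.492 and 0.505 FPKM (wild type) in GV libraries, against 16.5 FPKM (YAP-null) and 15.03 FPKM (wild type) in 4-cell embryos. Its difference of 3.36 ± 0.265 (adjusted p = 0.000286) was alike in both genotypes, at 3.29 in YAP-null and 3.42 in wild type.

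Hars, which charges histidine tRNA, was even across the oocyte libraries, at 8.97 and 8.02 FPKM (YAP-null) and 7.45 and 7.67 FPKM (wild type) in GV libraries. It reached 41.03 FPKM (YAP-null) and 59.7 FPKM (wild type) in 4-cell embryos. The groups did not overlap, and the rise was 2.49 ± 0.322 (adjusted p = 0.00131). Kars, the lysine enzyme of both compartments, was at 32.04 and 37.3 FPKM (YAP-null) and 34.4 and 45.5 FPKM (wild type) in GV libraries. In 4-cell embryos it was at 152 FPKM (YAP-null) and 200.1 FPKM (wild type), a rise of 2.21 ± 0.319 (adjusted p = 0.0019). Aars, Tars, Mars and Rars rose as well, by 1.83, 1.54, 1.195 and 1.13, and for each both 4-cell libraries were above all 4 GV libraries.

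Among the mitochondrial enzymes, Yars2 and Wars2, for tyrosine and tryptophan, rose beside Mars2. Yars2 was at 2.22 to 7.25 FPKM in GV oocytes and at 15.1 and 21.2 FPKM in the YAP-null and wild-type 4-cell libraries, a rise of 1.79 ± 0.508 (adjusted p = 0.0243). Wars2 was at 1.16 and 1.76 FPKM (YAP-null) and 1.17 and 0.975 FPKM (wild type) in GV libraries. It was at 3.54 FPKM (YAP-null) and 8.20 FPKM (wild type) in 4-cell embryos, a rise of 1.52 ± 0.369 (adjusted p = 0.0136). Both tyrosine enzymes therefore rose, while for tryptophan the cytosolic Wars differed by -0.87 (adjusted p = 0.0584) and did not pass. Of the 14 pairings with both genes tested, 6 had stage differences of the same sign.

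The 5 genes that fell were Rars2, Sars, Qars, Cars and Aars2. Sars, the serine enzyme, was at 41.5 and 25.6 FPKM (YAP-null) and 45.4 and 26.4 FPKM (wild type) in GV libraries, and at 8.68 and 10.8 FPKM in the YAP-null and wild-type 4-cell libraries. Its difference was -1.70 ± 0.381 (adjusted p = 0.0102). Qars was at 259 and 155 FPKM (YAP-null) and 279 and 167 FPKM (wild type) in GV libraries, and at 70.3 and 90.7 FPKM at the 4-cell stage. It fell by 1.37 ± 0.416 on the log2 scale (adjusted p = 0.0306). Qars was the most abundant oocyte member, and its 4 oocyte values all lay above both 4-cell values. Cars, the cysteine enzyme, was even across oocyte libraries, at 17.8 and 18.9 FPKM (YAP-null) and 17.4 and 18.1 FPKM (wild type) in GV libraries. It was at 4.88 FPKM (YAP-null) and 8.89 FPKM (wild type) in 4-cell embryos, a difference of -1.32 ± 0.332 (adjusted p = 0.0157).

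The mitochondrial genes that fell were those for arginine and alanine. Rars2 was at 16.1 and 11.002 FPKM (YAP-null) and 15.5 and 14.99 FPKM (wild type) in GV libraries, and at 2.36 and 5.10 FPKM in the YAP-null and wild-type 4-cell libraries. It fell by 1.75 ± 0.348 (adjusted p = 0.00629), while its cytosolic counterpart Rars rose. Aars2 was at 5.35 and 4.52 FPKM (YAP-null) and 5.91 and 6.20 FPKM (wild type) in GV libraries. In 4-cell embryos it was at 0.568 FPKM (YAP-null) and 3.34 FPKM (wild type), a difference of -1.31 ± 0.375 (adjusted p = 0.0249). The Aars level was 2.03 to 3.93 times that of Aars2 in oocytes and 92.8 and 18.1 times in YAP-null and wild-type 4-cell embryos.

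**Figure D2:**
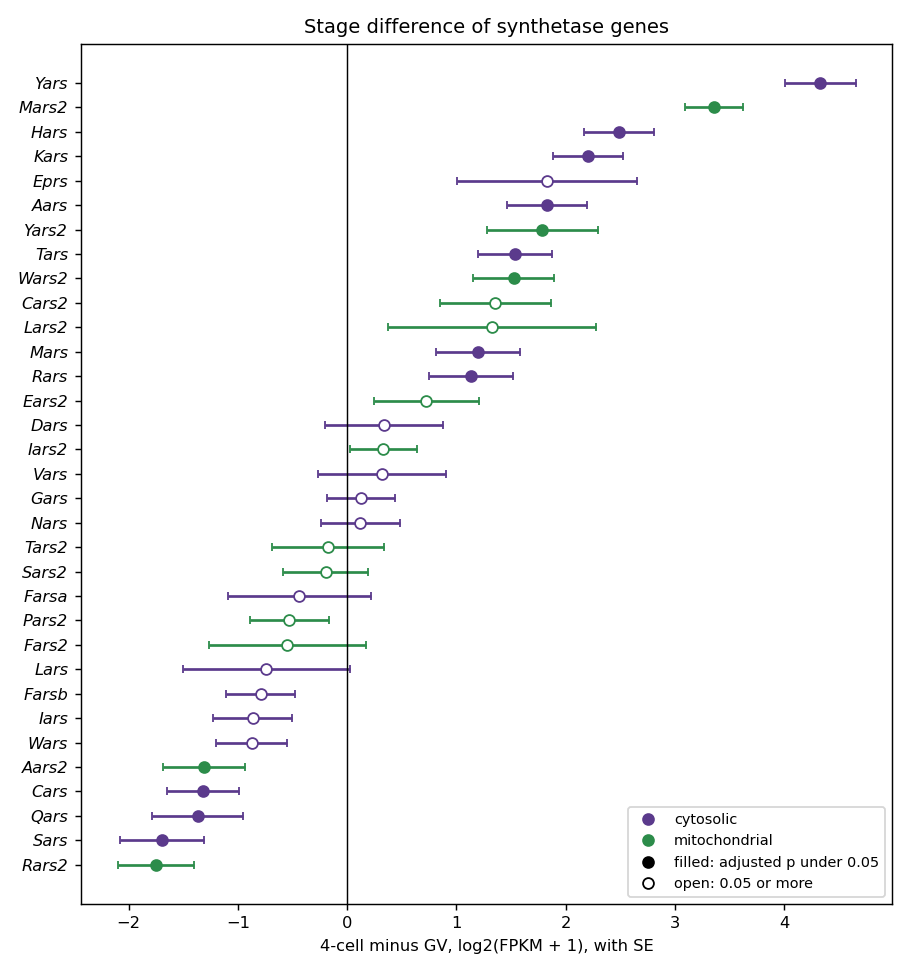
Stage difference (4-cell minus GV, log2(FPKM + 1) scale, limma with genotype as covariate) of the 33 tested synthetase genes, with SE bars; purple is cytosolic, green is mitochondrial, filled points have an adjusted p under 0.05. The differences run from -1.75 (Rars2) to 4.33 (Yars), and 10 filled points lie above and 5 below zero.

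These calls rest on 2 unreplicated 4-cell libraries. Without the 4-cell library labelled YAP-null 6 members rose and 0 fell at the adjusted threshold (limma), and without the wild-type 4-cell library 4 rose and 3 fell; Yars, Mars2, Hars and Kars passed in both. Qars did not pass without GV library 1 of YAP-null (limma adjusted p = 0.0614) or of wild type (0.0862), nor Aars2 without YAP-null GV library 2 (0.0540). Mars (adjusted p = 0.0368) and Rars (0.0453) lay near the threshold. Eprs, the fifth in size at 1.83 ± 0.826 (adjusted p = 0.102), did not pass, but did without GV library 2 of YAP-null (0.0324) or of wild type (0.0406). Eprs was at 5.52 and 31.3 FPKM (YAP-null) and 6.46 and 32.8 FPKM (wild type) in GV libraries, against 46.4 and 60.3 FPKM in 4-cell embryos. On the log2(FPKM + 1) scale the replicate GV libraries of Eprs were 2.31 (YAP-null) and 2.18 (wild type) apart, more than the 0.71 between the GV libraries numbered 2 and the 4-cell libraries. Nars2, under the 1 FPKM mean, was at 0.315 to 0.573 FPKM in GV and at 1.11 and 0.939 FPKM in 4-cell libraries. The remaining 17 tested genes also did not pass, with differences from -0.87 (Wars) to 1.35 (Cars2). In all, 12 tested members had both 4-cell values above every GV value and 8 had both below (35.1% and 35.2% of all genes). The oocyte and granulosa marker sums given above fell with the stage, and their part in these differences was not tested.

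The promoters of Yars and Mars2 are shown because these genes had the largest stage rises, and that of Sars because it had the largest fall among cytosolic members. Sequences are from RefSeq on GRCm38.p6, a later build than the mm9 of the expression tables, and give the 250 bases before the annotated start, 5′ to 3′ on the gene's strand. Capitals mark matches, on either strand, to CCAAT (the box bound by NF-Y) and to CCGGAAG (a site of ETS factors).
Yars promoter, chr4:129189653-129189902, plus strand: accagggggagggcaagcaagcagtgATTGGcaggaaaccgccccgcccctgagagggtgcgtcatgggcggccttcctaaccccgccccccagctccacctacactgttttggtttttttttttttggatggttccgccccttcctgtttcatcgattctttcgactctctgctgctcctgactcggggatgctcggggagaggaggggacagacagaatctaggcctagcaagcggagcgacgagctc
Mars2 promoter, chr1:55236927-55237176, plus strand: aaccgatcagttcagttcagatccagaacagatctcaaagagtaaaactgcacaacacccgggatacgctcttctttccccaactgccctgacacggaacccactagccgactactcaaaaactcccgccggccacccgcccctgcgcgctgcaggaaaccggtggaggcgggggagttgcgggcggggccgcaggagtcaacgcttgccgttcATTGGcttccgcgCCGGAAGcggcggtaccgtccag
Sars promoter, chr3:108445260-108445509, minus strand: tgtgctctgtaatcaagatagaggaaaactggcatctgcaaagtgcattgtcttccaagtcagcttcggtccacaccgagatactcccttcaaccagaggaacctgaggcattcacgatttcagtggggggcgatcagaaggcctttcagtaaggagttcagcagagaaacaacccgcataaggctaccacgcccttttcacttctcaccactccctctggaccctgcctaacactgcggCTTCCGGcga
The Yars window has 1 CCAAT box, on the minus strand, and no ETS match. The Mars2 window has a CCAAT box and an ETS match close to the start, and the Sars window has an ETS match only.

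A promoter was found for 26 of the 34 members (Mars under its present symbol Mars1), and motifs were searched in 300 bases, 250 before and 50 after the start, on both strands. A member was counted if any of its windows held the motif, while the share of all windows counts each window singly. The 2 shares are therefore in unlike units, and a member with several windows had more chances of a match. The element bound by C/EBP-ATF dimers, through which ATF4 acts in the amino acid response, was searched as TGATGCAA. It occurred in 4 of the 26 members (15.4%), against 0.895% of 32851 promoter windows. The sites of 3 of these members are shown in 28 bases each because the share with the element was higher in the members than in all windows, a difference that was not tested; capitals mark the element, which reads TTGCATCA on the other strand.
Iars, chr13:49682127-49682154, plus strand: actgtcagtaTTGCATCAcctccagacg
Tars, chr15:11399656-11399683, minus strand: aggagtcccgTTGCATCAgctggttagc
Yars, chr4:129189896-129189923, plus strand: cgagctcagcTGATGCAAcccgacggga
Of the members shown, Tars and Yars rose from oocyte to 4-cell embryo, and Iars, at 67.9 to 114 FPKM in GV and 47.7 and 47.9 FPKM in 4-cell libraries, differed by -0.87 (adjusted p = 0.0838) and did not pass. Aars, the other member with the element, whose site is not shown, rose by 1.83 (limma adjusted p = 0.00641). The TEAD motif GGAATG, the site of the factors through which YAP acts, was in 6 of 26 members (23.1%; 14.7% of all windows): Aars, Dars, Ears2, Tars2, Wars2 and Yars2. CCAAT was in 50% (37.4% of all), CCGGAAG in 34.6% (8.86%), the E-box CACGTG in 19.2% (7.15%), the YY1 motif AAGATGGC in 15.4% (2.75%) and TATAAA in 11.5% (13.6%). The CRE TGACGTCA and the palindromic NRF1 motif were in 0 members and in 1.79% and 0.971% of all windows. A match is a description of the letters, not a measured binding site.

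Some members overlap or adjoin other genes, and the labels do not state how strand was used in the counting, so reads in the shared bases could be assigned to either gene. The overlaps were 30 bases between Yars and the convergent C77080 and 68 between Mars and the convergent Ddit3. Iars2 shared 85 bases with the convergent Rab3gap2. Aars shared 532 bases with Exosc6 on the same strand, a large part of the Exosc6 locus (mm9 chromosome 8, 113580239 to 113581499). C77080 was at 0 to 0.0652 FPKM in GV and at 12.1 and 17.0 FPKM in the YAP-null and wild-type 4-cell libraries, and like Yars it rose (3.88 ± 0.257, limma adjusted p = 0.000174). Exosc6, an exosome subunit gene, rose beside Aars, by 2.38 ± 0.323 (limma adjusted p = 0.0015), and the part of shared reads in this was not tested. Ddit3, a stress-response factor gene, moved against Mars: it was at 26.4 to 40.6 FPKM in GV and at 7.47 and 4.11 FPKM in 4-cell libraries, a difference of -2.46 ± 0.373 (adjusted p = 0.00226). Rab3gap2 fell as well (-2.78 ± 0.349, adjusted p = 0.00116), while Iars2 stayed within 1.45 to 4.31 FPKM in all 6 libraries.

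Hars has a divergent neighbour, Hars2, the mitochondrial histidine enzyme, which is not among the 34 and starts 74 bases from the Hars locus. Hars2 was listed at 0 in both YAP-null GV libraries, had 0.142 and 0.568 FPKM in those of wild type, and at 11.02 and 8.23 FPKM in the YAP-null and wild-type 4-cell libraries. It rose with Hars, by 3.19 on the log2 scale. Lars2 is the mitochondrial leucine enzyme. Lars2 was at 86.1 and 17.9 FPKM (YAP-null) and 95.9 and 13.0 FPKM (wild type) in GV libraries, and at 161 and 57.1 FPKM in the YAP-null and wild-type 4-cell libraries. Rn45s, the precursor of ribosomal RNA, was at 186 and 30.5 FPKM, 168 and 32.3 FPKM, and 298 and 176 FPKM in the same order. Both genes were low in the GV libraries numbered 2 and highest in the 4-cell library labelled YAP-null, and the part of ribosomal RNA reads in the Lars2 value was not tested.

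**Figure D3:**
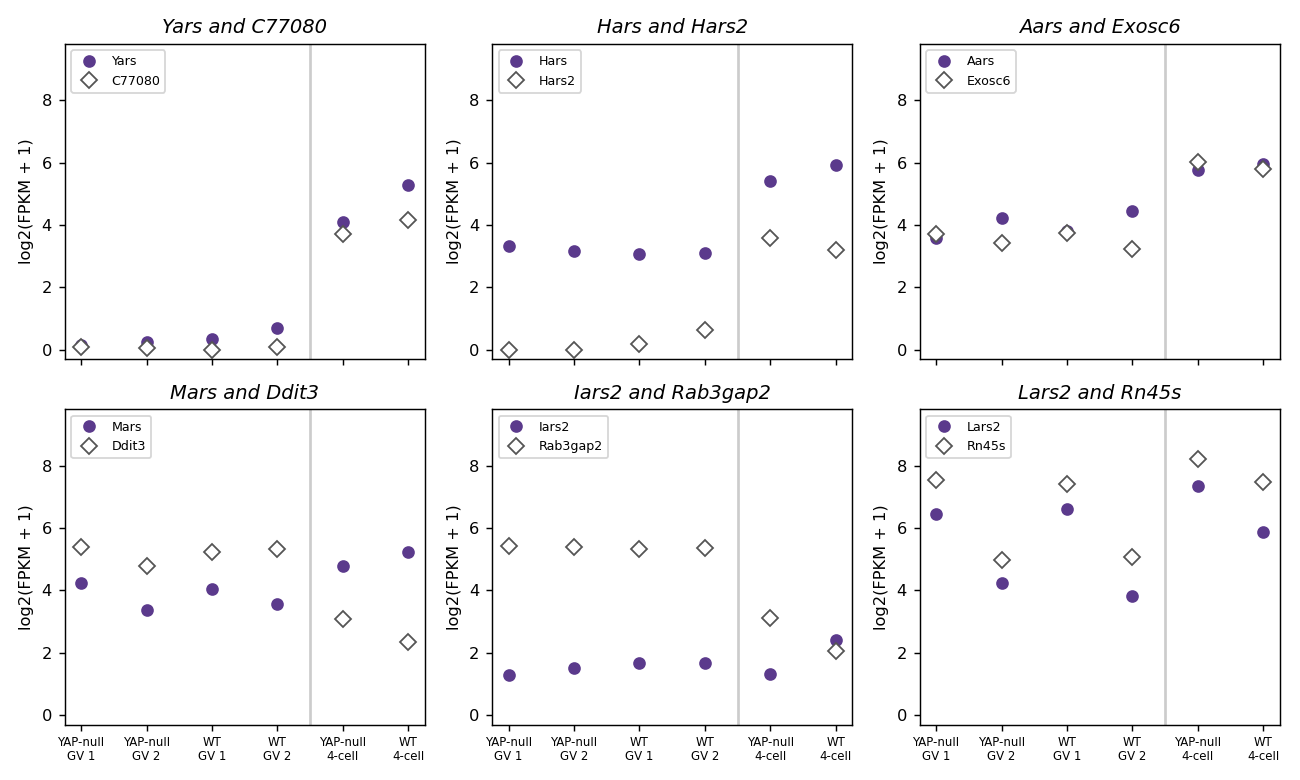
Levels (log2(FPKM + 1)) in each of the 6 libraries of 5 members with their overlapping or adjacent gene, and of Lars2 with Rn45s; filled circles are the synthetase, open diamonds the other gene, and the grey line parts GV from 4-cell libraries. Yars and C77080 are near zero in the GV libraries and high in both 4-cell libraries, Mars and Ddit3 move in opposite directions, and Lars2 and Rn45s are both low in the GV libraries numbered 2.

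The second comparison asked whether oocytes labelled YAP-null and wild type differ in synthetase mRNA. In limma 0 of 31 tested members passed and 0 had an unadjusted p under 0.05. Over all 10462 genes 0% passed (0 genes) and 0.21% had an unadjusted p under 0.05. The members' differences ran from -0.27 to 0.24 on the log2 scale, with a median of -0.07 (0.00 for all genes). The largest was that of Iars2, the mitochondrial isoleucine enzyme. It was at 1.45 and 1.83 FPKM (YAP-null) and 2.16 and 2.20 FPKM (wild type) in GV libraries, a difference of -0.27 ± 0.340 (SE, limma). Aars2 followed at -0.25 ± 0.354 and Wars2 at 0.24 ± 0.347, each smaller than its SE. Of the 31 tested members, 1, Hars, had both YAP-null values above both wild-type values (5.1% of all genes tested). In 3, Gars, Aars2 and Iars2, both lay below (5.68%). Mars2 (YAP-null above) and Yars (YAP-null below) also did not overlap, but their GV means were under 1 FPKM and they were not tested. With 2 libraries a genotype, missing the threshold does not show that the genotypes are alike.

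In 27 of 34 members the mean difference between GV libraries numbered 2 and 1 was larger than that between genotypes. Aars2, Iars2 and Hars were among the 7 in which it was not. The share over all genes is not given for this count. Deviations of same-numbered GV libraries from their genotype means correlated at 0.849 across 10462 genes, so the split by number was not confined to the members. Between the libraries numbered 2 and 1, 10 of 31 measured members in YAP-null and 7 of 31 in wild type were at least 2-fold apart (26.9% and 23.3% of all genes). In 7 members this held the same way in both genotypes (17.7% of all genes): Eprs, Lars and Fars2 were higher in number 2, and Farsa, Lars2, Cars2 and Yars2 lower. By direction, 3 members in YAP-null and 3 in wild type were at least 2-fold higher in number 2 (18% and 16.4% of all genes), and 7 and 4 were lower (8.89% and 6.84%). Farsa, a phenylalanine enzyme subunit, was at 90.0001 and 27.3 FPKM (YAP-null) and 87.8 and 26.9 FPKM (wild type) in GV libraries. Its partner subunit Farsb was at 73.7 and 70.3 FPKM and at 60.6 and 80.5 FPKM, so the Farsa value was above that of Farsb in number 1 and far below it in number 2. Fars2, the mitochondrial phenylalanine enzyme, went the other way, at 8.10 and 38.3 FPKM and at 11.6 and 35.8 FPKM.

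For some members the sign of the stage difference depended on the library number. Compared with GV libraries numbered 1 or 2 alone, 6 of 33 members had opposite signs: Dars, Farsa, Lars, Nars, Fars2 and Tars2. Without a share over all genes beside it, this count is not shown to be particular to the synthetases. Dars, Nars and Tars2 did not pass against either number. Farsa had a stage difference of -1.28 against the libraries numbered 1 (limma adjusted p = 0.0248) and 0.40 against those numbered 2. Lars had 0.07 and -1.55 (adjusted p = 0.0486 for the second), and Fars2 had 0.36 and -1.46 (adjusted p = 0.0125 for the second). The labels do not say what the numbers stand for. Oocyte marker sums also differed by number, at 5226 and 6149 FPKM in the GV libraries numbered 1 and 10276 and 10758 FPKM in those numbered 2, and their part in these differences was not tested. Of the 15 members called over both numbers, 12 were also called within each number, a count given without its share over all genes.

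**Figure D4:**
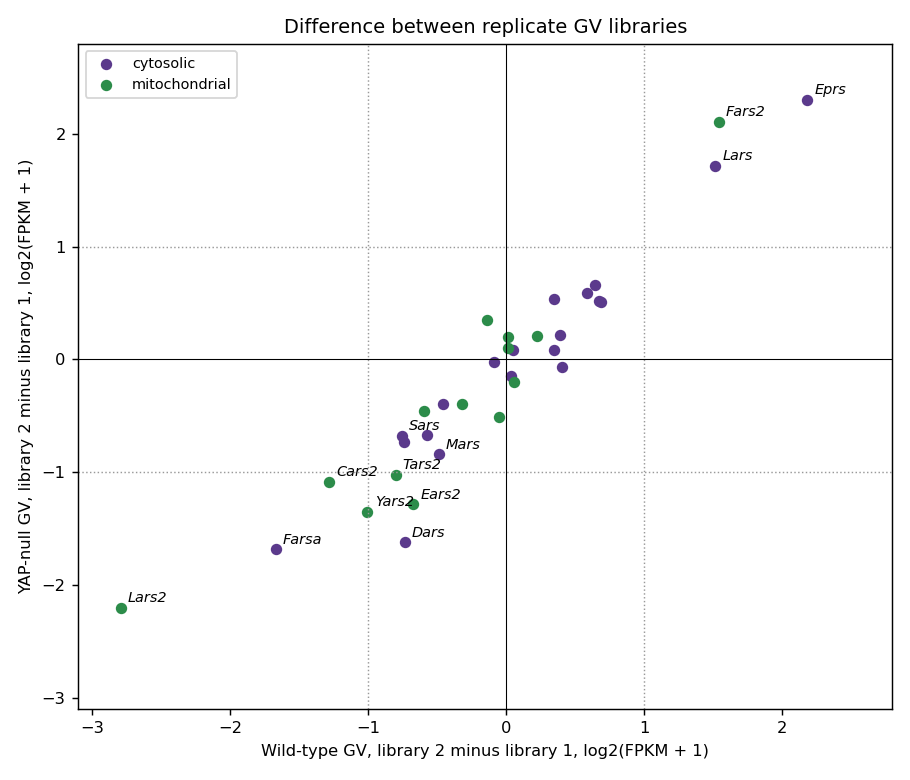
Difference between replicate GV libraries (library 2 minus library 1, log2(FPKM + 1)) in wild type (x axis) and YAP-null (y axis) for the 34 synthetase genes; dotted lines mark 2-fold, purple is cytosolic and green mitochondrial. The points lie along the diagonal from Lars2 at lower left (-2.79 and -2.20) to Eprs at upper right (2.18 and 2.31). Of the 34, 30 have the same sign in both genotypes, a count without its share over all genes.

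The third comparison asked how synthetase mRNA differs between 4-cell embryos labelled YAP-null and wild type. Nearly the whole list was lower by value in the YAP-null library: 30 of 34 members (88.2%), among them all 20 cytosolic genes, against 47.8% of all 10854 genes measured at this stage. The cytosolic sum was 75.03% of wild type and the mitochondrial sum 135%, or 70.4% without Lars2. The median difference was -0.40 for cytosolic and -0.88 for mitochondrial genes on the log2(FPKM + 1) scale, and 0.05 over all genes. With 1 library a genotype there is no replicate check and no test, so the spread between embryo samples is unknown. The counts of 30, 20 and 10 lower genes were the same with libraries scaled to their median ratio, where 48.2% of all genes were lower.

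On the log2(FPKM + 1) scale 8 members were at least 2-fold lower in YAP-null (23.5%, against 9.97% of all genes) and 1 at least 2-fold higher (2.94%, against 17.7%). By the ratio of FPKM 11 were at 50% of wild type or less, against 12.6% of all genes. The 3 lower cytosolic genes were those for valine, leucine and tyrosine. The Vars level was 1.24 FPKM in YAP-null embryos against 9.65 FPKM in wild type, 12.8% of it. Lars was at 1.52 and 9.75 FPKM (15.6%), and Yars at 16.2 and 37.7 FPKM (43.03%). In GV oocytes Vars had 4.11 and 2.22 FPKM (YAP-null) and 3.60 and 2.10 FPKM (wild type), and Lars at 3.96 and 15.3 FPKM and 3.98 and 13.3 FPKM, so neither gene parted the genotypes there.

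Among the mitochondrial enzymes, Aars2, Iars2, Sars2, Tars2 and Wars2 were at least 2-fold lower on that scale. By FPKM, Aars2 was at 17.0% of wild type and the other 4 at 34.6% to 43.2%. Pars2 (36.0%), Rars2 (46.3%) and Ears2 (49.4%) were also under 50% of wild type by FPKM but not 2-fold apart with the pseudocount of 1. At the other end, Iars and Wars differed little, at 47.7 and 47.9 FPKM and at 22.6 and 23.6 FPKM in the YAP-null and wild-type libraries. The 4 members higher in YAP-null were all mitochondrial. Lars2 was 2.82 times wild type, Fars2 was at 16.5 and 9.89 FPKM, Mars2 at 16.5 and 15.03 FPKM and Nars2 at 1.11 and 0.939 FPKM. Mars2 and Nars2 thus hardly parted the genotypes. Rn45s was also higher in the YAP-null 4-cell library, at 298 against 176 FPKM, and its part in the Lars2 value was not tested.

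**Figure D5:**
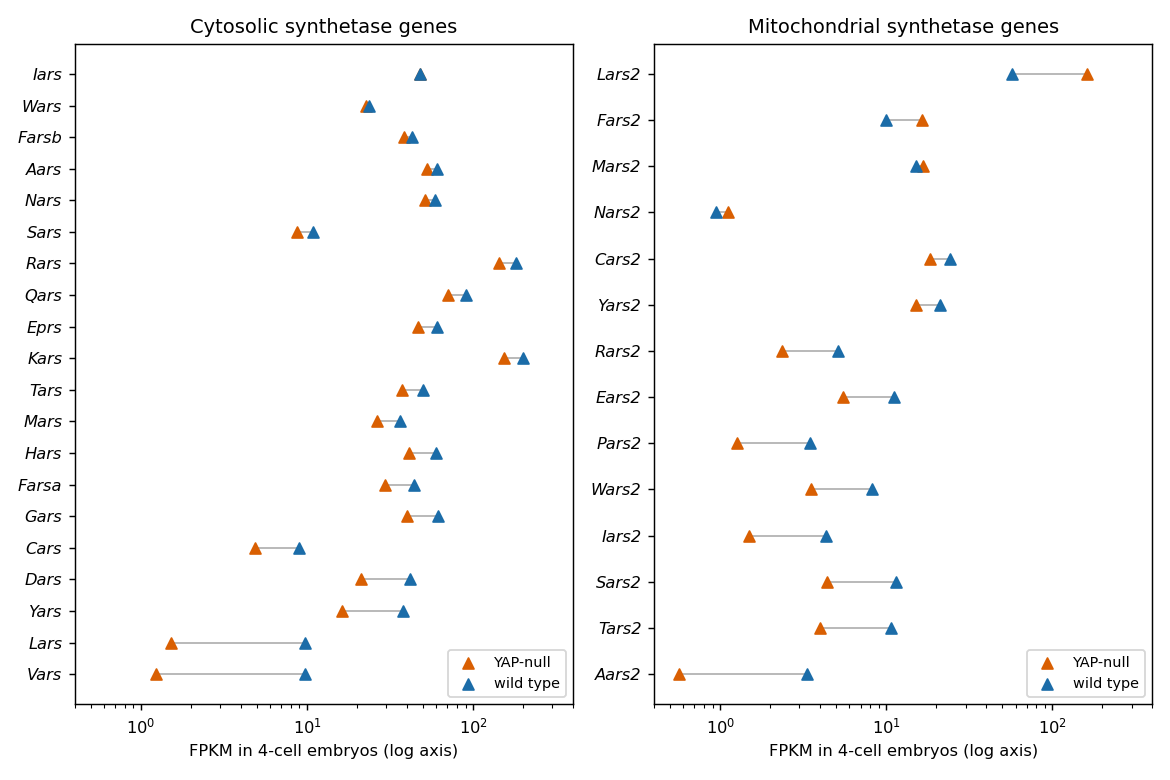
FPKM (log axis) of each synthetase gene in the single YAP-null (orange) and single wild-type (blue) 4-cell library, joined by a grey line, cytosolic genes at left and mitochondrial at right, ordered by the log2 difference. All 20 cytosolic genes have the orange point at or left of the blue point, from Iars at 47.7 and 47.9 FPKM to Vars at 1.24 and 9.65 FPKM; 4 mitochondrial genes are the other way round.

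Other measures also differed between the single 4-cell libraries. All 10 oocyte markers were at least 2-fold higher in the 4-cell library labelled YAP-null. Red blood cell markers summed to 25.9 FPKM (YAP-null) and 68.4 FPKM (wild type) in 4-cell embryos. That difference lay in Hba-a2 (0.0668 and 26.0 FPKM) and Hbb-b2 (0 and 15.9 FPKM). Hba-a1 was near equal at 25.9 and 26.3 FPKM, and Hbb-b1 and Alas2 were under 1 FPKM in both. Leukocyte markers summed to 0 and 13.3 FPKM, mainly from Lyz2 (0 and 9.59 FPKM) and Cd52 (0 and 2.94 FPKM). Laptm5 was at 0 and 0.710 FPKM and Ptprc at 0 and 0.0828 FPKM. The part of all these markers in the synthetase values was not tested. Members that fell from oocyte to embryo (Rars2, Sars, Qars, Cars, Aars2) and members that rose (Yars, Hars, Kars) were both lower in the YAP-null library, while Mars2, which also rose, was not.

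The last comparison asked whether the genotype difference itself differed between stages. In limma 0 of 33 members passed an adjusted p of 0.05 (0.157% of all genes), and 3 (9.09%) had an unadjusted p under 0.05, near the 10.3% of all genes. These 3 were Vars (-2.35), Aars2 (-1.22) and Wars2 (-1.26), with adjusted p of 0.442 to 0.454. The fit takes the spread from the GV replicates and assumes that the single 4-cell libraries vary likewise. By value, the members had a median stage difference of 0.66 (wild type) and -0.08 (YAP-null) (-0.14 and 0.00 over all genes). In 27 of 34 the sign was the same in both genotypes, and no share over all genes is given for this count.

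Genes that work beside the synthetases moved in part with them. Of the 3 scaffold proteins of the multisynthetase complex, Eef1e1 rose (1.60, limma adjusted p = 0.0495), from 20.2 to 66.5 FPKM in GV to 102.3 and 125 FPKM in YAP-null and wild-type 4-cell libraries. Aimp2 differed by 1.76 and Aimp1 by -0.98, and neither passed. Aimp1 was at 4.51 FPKM (YAP-null) and 18.2 FPKM (wild type) in 4-cell embryos. Of the 8 synthetases held in the complex, 3 rose (Kars, Mars and Rars) and 1 fell (Qars), against 28.2% and 27.8% of all genes. Of the 12 cytosolic genes outside it, 4 rose and 2 fell.

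Of the mitochondrial enzymes outside the list, Vars2, for valine, fell (-0.94, limma adjusted p = 0.0353). Partners of mitochondrial tRNA charging and modification numbered 8 tested genes, of which 3 rose and 3 fell (28.2% and 27.8% of all genes). Pus1, a pseudouridine synthase, and Gtpbp3, which modifies the wobble base, rose by 2.98 and 2.58, while Mtfmt, which formylates the charged initiator tRNA, was at 9.35 to 17.1 FPKM in GV and 1.59 and 2.99 FPKM in 4-cell libraries (-2.12). Cytosolic elongation factor 1 takes the charged tRNA to the ribosome. Of its 4 listed genes (Eef1a1, Eef1b2, Eef1d and Eef1g), Eef1g rose by stage (2.05). In the 4-cell library labelled YAP-null 3 of these genes were at least 2-fold lower (9.97% of all genes). They were Eef1g at 74.9 and 233 FPKM, Eef1b2 at 30.9 and 86.3 FPKM and Eef1a1 at 559 and 1375 FPKM (YAP-null first). Of 9 mitochondrial translation factors 1 rose, Tufm, which carries charged tRNA in mitochondria (2.24), and 3 fell, Mtrf1, Gfm2 and Mtif3 (28.2% and 27.8% of all genes).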

How the data were processed

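The authors deposited 1 gene table per library with FPKM values and their lower and upper bounds, per the file headers. CASAVA 1.8, TopHat and the mm9 build are named in the submitters' processing notes; no source used here gives the TopHat version, the quantification tool or the annotation release. Each table has 23813 lines. Left out was 1 line marked as failed, and the loci of 260 symbols were summed. Start positions were counted from 1. FPKM was used as deposited, with a pseudocount of 1 before log2, and a gene was tested where its mean in the compared libraries reached 1 FPKM, with limma 3.58.1 (limma-trend, R 4.3.3), two-sided, with Benjamini-Hochberg adjustment over all genes. The GV fit used 4 libraries, and the stage fit and the stage by genotype fit used 6. An alternative pseudocount, 2 other filters, another scaling, another treatment of loci, each library left out, a fit of group means, limma without trend and a replicate block were also run. The deposited values hold no read counts, so no interval was computed from counts. The deposited bounds of the FPKM values are not printed here and were used only for relative depth. Relative depth was the median, over well-expressed genes inside their own bounds, of FPKM divided by the squared half-width of its bounds. It was set against wild-type GV library 1. Strands of neighbouring genes were taken from GENCODE M21. No label says that libraries of a group came from separate animals, so p-values measure only the spread between these libraries. The scripts were tested on simulated data. Members and lists were chosen with earlier results of these data known. The members described in every library were the 5 with the largest and the 5 with the smallest stage difference, the 3 with the largest GV genotype difference and the 3 with the largest 4-cell genotype difference in each direction. Some results are not reported here.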

Additional observations from a re-analysis of the deposited data

Results flagged for a closer look

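In 4 members every YAP-null GV library lay above the 4-cell library labelled YAP-null while every wild-type GV library lay below the wild-type 4-cell library. This was 12.1% of 33 tested members and 2.37% of all genes tested. The difference of the stage differences (YAP-null minus wild type, log2 scale, limma) was -0.55 for Gars, -2.35 for Vars, -1.10 for Sars2 and -1.38 for Tars2. It did not pass for any of them, with adjusted p of 0.442 to 0.775. Vars was at an unadjusted p of 0.0333.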

How the results depend on the processing

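In GV oocytes 0 members passed under every alternative run; over all genes 0 passed, with the replicate block 2, and without 1 library 2 to 7. The replicate numbers were not used as pairs, since no label says what they share; deviations of same-numbered GV libraries correlated at 0.849 across 10462 genes. With the replicate block 7989 genes passed the stage test instead of 6408, and 13 members rose and 8 fell instead of 10 and 5; Eprs then passed (adjusted p = 0.0011). In a fit of group means 7 rose and 4 fell, and Qars did not pass (0.0650). Without the YAP-null 4-cell library 4215 genes passed it, with 6 members higher and 0 lower, and without the wild-type 4-cell library 2965, with 4 and 3. The stage by genotype test, which passed 18 genes, passed 1264 with no low-value filter, 4 at a mean of at least 5 FPKM, 0 without trend, 0 with the replicate block and 0 without any 1 GV library. Its value turned for Fars2 (0.87 with all libraries; leaving out 1 GV library gave -0.18, without YAP-null replicate 1, to 1.93) and Lars2 (1.34 with all; -0.057, without wild-type replicate 1, to 2.74). At a mean of at least 5 FPKM, 1723 genes were at least 2-fold apart at the 4-cell stage, against 3007. With a pseudocount of 0.1, 11 members were at least 2-fold lower there instead of 8. The cause of these shifts was not tested. Depth differed between libraries, and members near or under 1 FPKM (Nars2, and Yars and Mars2 in oocytes) rest on the fewest fragments.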

Other observations

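The steps before tRNA charging also differed between stages. Of 18 tested genes of tRNA processing and export, 10 rose and 1 fell from oocyte to 4-cell embryo (28.2% and 27.8% of all genes). Xpot, which exports tRNA from the nucleus, was at 0.654 to 1.501 FPKM in GV and at 22.3 and 46.03 FPKM in the YAP-null and wild-type 4-cell libraries (3.99 on the log2(FPKM + 1) scale, limma adjusted p = 0.000568). Clp1, a kinase of the tRNA splicing complex, was at 1.08 to 2.47 FPKM in GV and at 51.9 and 63.4 FPKM in 4-cell libraries. The RNase P subunit gene Rpp25 was listed at 0 in all 4 GV libraries and was at 50.1 and 20.4 FPKM, while Rpp21, another subunit, fell (50.7 to 106.4 FPKM in GV, 7.69 and 10.6 FPKM in 4-cell libraries).

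Genes of the amino acid response went both ways, with 9 of 18 tested genes higher and 4 lower in 4-cell embryos (28.2% and 27.8% of all genes). Atf4 itself was at 90.7 to 131 FPKM in GV and 126 and 117 FPKM in YAP-null and wild-type 4-cell libraries and did not pass. Among the higher genes were those of serine synthesis: Psat1 was at 0.128 to 0.513 FPKM in GV and at 181 and 334 FPKM in 4-cell libraries, and Phgdh at 12.4 to 32.8 FPKM and at 121 and 333 FPKM. Sesn2, an inhibitor of mTORC1, was at 1.75 to 3.35 FPKM and at 176 and 132 FPKM. Slc7a11, the cystine transporter, fell from 21.5 to 29.9 FPKM in GV to 1.34 and 0.174 FPKM, and Mthfd2, of mitochondrial folate metabolism, was at 85.1 to 116 FPKM in GV and at 47.7 and 12.2 FPKM.

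In the selenocysteine tRNA pathway 1 of 7 tested genes rose and 2 fell (28.2% and 27.8% of all genes). Pstk, the kinase that starts selenocysteine synthesis on the tRNA, fell from 8.53 to 37.6 FPKM in GV to 2.99 and 2.44 FPKM.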
